A study of Mus musculus with 9 samples.

Results

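The genes described here are 10 genes of glucose use. They are the glucose transporters Slc2a1 and Slc2a3, the glycolytic enzymes Hk2, Pfkl, Aldoa, Pgk1, Eno1 and Pkm, the lactate-forming enzyme Ldha, and Pdk1. Pdk1 is a kinase that switches off pyruvate dehydrogenase, an enzyme that uses pyruvate inside mitochondria. The 10 genes were chosen by symbol, as genes of this pathway. The 10 symbols matched 11 of the 56262 rows in the count tables, because Aldoa stands for 2 gene IDs, and all 11 rows were among the 16595 genes tested. The second Aldoa row, ENSMUSG00000114515, averaged 4.49 ± 1.31, 4.42 ± 1.15 and 4.90 ± 0.441 CPM (counts scaled to the library's total) in 5-FU+FMT, 5-FU+Saline and Control (SD, n = 3 each) and was called in no comparison (edgeR, adjusted p of 0.540 to 0.972), so Aldoa means ENSMUSG00000030695 below.

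RNA was sequenced from mouse bone marrow stem cells that the labels call long-term hematopoietic stem cells (LT-HSCs), sorted as Lin-Sca1+c-Kit+CD150+ and C48-, which is read here as CD48-. All mice were C57BL/6 WT, and neither their age nor their sex is given in the sources used here. The 5-FU+FMT mice received 250 mg/kg of 5-FU, a chemotherapy drug that kills dividing cells, followed by 5 mg/kg of FMT, an agent that the labels do not spell out, into a vein on days 1, 4 and 7. The 5-FU+Saline mice received 5-FU with saline, called PBS in one label, and Control mice were untreated, so that no group received FMT without 5-FU. Treated mice were killed on day 8, no day is given for Control mice in the sources used here, and each group has 3 libraries. The labels do not say how many mice stand behind a library, so p-values measure the spread between these libraries, which may be technical. That spread was small. Chi-square per degree of freedom was 2.15 to 2.57 for pairs of libraries within groups and 24.3 to 133 between groups. The common coefficient of variation in the fit was 3.74%. Xist and Y-linked RNA stood together in the treated groups, as given below, and whether libraries pool mice was not tested.

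Glycolysis breaks glucose down to pyruvate in the cytosol. Transporters of the SLC2A family let glucose in, hexokinase traps it as a phosphate, phosphofructokinase sets much of the pace, aldolase splits the sugar, and phosphoglycerate kinase and pyruvate kinase make ATP. Lactate dehydrogenase turns pyruvate into lactate, while pyruvate dehydrogenase, which the PDK kinases switch off, uses it inside mitochondria. Long-term stem cells of the marrow are known to lean on glycolysis while at rest, under the hypoxia-inducible factors (HIFs), and dividing blood cells also run glycolysis at a high rate.

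The promoters of 3 members are shown because HIF and MYC proteins, which are known to drive glycolysis genes, bind short sequences with the cores ACGTG or GCGTG (HIF) and CACGTG (MYC), and because Ldha and Pgk1 had the largest differences of the set while Slc2a1 had one of the smallest. Each sequence holds the 250 bases before the first start listed by RefSeq (GRCm38.p6), from 5′ to 3′ in the direction of transcription. The capitals mark ACGTG or GCGTG on either strand, so that they also appear as CACGT or CACGC, and they include CACGTG, which contains ACGTG on both strands. The windows are chr7:46845554-46845803 (+ strand) for Ldha, chrX:106186850-106187099 (+ strand) for Pgk1 and chr4:119108495-119108744 (+ strand) for Slc2a1.

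Ldha: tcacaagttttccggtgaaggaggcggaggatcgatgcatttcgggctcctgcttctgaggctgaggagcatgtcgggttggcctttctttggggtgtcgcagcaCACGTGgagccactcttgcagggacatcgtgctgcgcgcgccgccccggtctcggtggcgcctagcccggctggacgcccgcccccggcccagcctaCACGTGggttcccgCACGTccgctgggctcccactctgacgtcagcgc
Pgk1: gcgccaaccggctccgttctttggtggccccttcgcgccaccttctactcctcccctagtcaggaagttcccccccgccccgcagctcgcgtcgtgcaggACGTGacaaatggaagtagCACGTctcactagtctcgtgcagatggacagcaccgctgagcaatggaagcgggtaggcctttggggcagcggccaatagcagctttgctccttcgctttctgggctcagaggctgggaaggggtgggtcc
Slc2a1: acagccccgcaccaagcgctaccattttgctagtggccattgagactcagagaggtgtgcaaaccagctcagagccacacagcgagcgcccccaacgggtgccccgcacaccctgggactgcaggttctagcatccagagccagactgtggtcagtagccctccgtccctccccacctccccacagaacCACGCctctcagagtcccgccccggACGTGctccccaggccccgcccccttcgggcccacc

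Of the 10 members, 9 had promoters in the table, and 7 of these 9 held ACGTG or GCGTG in the 250 bases before the first start. Counted over all 16 starts listed for members, 13 held these letters. The same letters stood in 38.6% of all 32851 promoters of that length, which are also counted per start, so that a gene can count several times. CACGTG stood only before the first start of Ldha among the 16 starts listed for members, and in 6.02% of all promoters. Slc2a1, whose RNA differed little between groups, held the letters as well as Ldha and Pgk1 did. A match describes these letters and shows no binding.

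The libraries held 11098031 to 19270976 counts and detected 22813 to 24237 genes. All 10 stem cell markers listed, such as Hlf and Procr, were found in every group, with sums of 1517 to 1528 CPM in 5-FU+FMT, 1339 to 1362 CPM in 5-FU+Saline and 1826 to 1878 CPM in Control, and 3 were called higher and 5 lower in 5-FU+Saline than in Control. The surface marker genes Kit, Ly6a, Slamf1, Cd48, Cd34 and Flt3 summed to 1386 to 1431, 956 to 968 and 2027 to 2042 CPM in the same groups, with 3 called higher and 3 lower in 5-FU+Saline than in Control. RNA of Slamf1 and Cd48 did not follow the labels, whose gate is on surface protein and not on RNA. Single values of the positive gate genes Kit and Ly6a are not given here. Slamf1, which encodes the positive gate CD150, had 3.79 to 4.29, 5.24 to 5.89 and 1.19 to 1.56 RPKM (CPM per kb of exon) in 5-FU+FMT, 5-FU+Saline and Control, while Cd48, the negative gate, had 37.9 to 40.3, 44.8 to 45.7 and 24.7 to 26.8 RPKM. This held for all 9 libraries, so no result could be given without them. Markers of other cells moved with the groups. The summed level of 7 B lineage markers was 393 to 429.96 CPM in 5-FU+FMT, 844 to 859 CPM in 5-FU+Saline and 51.3 to 51.9 CPM in Control, that of 8 neutrophil markers 863 to 982, 149 to 162 and 2270.2 to 2307 CPM, and that of 8 erythroid markers 762 to 800.0, 436 to 447 and 1244 to 1271 CPM. All 7 B lineage markers were called higher and all 8 erythroid markers lower in 5-FU+Saline than in Control, while of the neutrophil markers 3 were higher and 4 lower. The 7 stroma markers summed to 74.2 to 77.0, 222 to 225 and 62.9 to 63.9 CPM, and the 5 macrophage markers to 18.5 to 20.7, 38.7 to 46.2 and 18.4 to 23.2 CPM in the same groups. Of the stroma markers, 6 were called higher than in Control and 1 lower in both treated groups. Of the macrophage markers, 4 were higher and 1 lower in 5-FU+Saline, and 3 higher and 1 lower in 5-FU+FMT. As background for all these marker counts, 65.5% of all genes tested were called in 5-FU+Saline against Control, 32.8% higher and 32.7% lower. In 5-FU+FMT against Control 46.6% were called, 25.0% higher and 21.6% lower. No marker of these lists was at 0 in a group. Xist, the RNA of the silenced X chromosome, stood at 682 ± 19.8, 1201 ± 20.2 and 0.870 ± 0.421 CPM, and 4 Y-linked genes summed to 229.7 ± 5.94, 99.2 ± 4.84 and 366 ± 6.73 CPM (SD, n = 3 each). The part of cell make-up in the results was not tested, and sex and treatment cannot be told apart. In sorted bulk samples, fewer cells of a type and less RNA per cell cannot be told apart either.

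Compared per length of exon, Pkm, Ldha, Pgk1, Aldoa and Eno1 lay above both transporters in every group, in Control with the smallest gap, between Eno1 at 51.6 ± 0.639 RPKM and Slc2a3 at 38.6 ± 0.727 RPKM (SD, n = 3). In 5-FU+FMT, Pkm stood highest at 192 ± 0.856 RPKM, ahead of Ldha at 183 ± 2.78, Pgk1 at 147 ± 5.37, Aldoa at 125 ± 1.30 and Eno1 at 73.9 ± 1.77 RPKM (SD, n = 3). Slc2a3 and Pfkl followed at 28.1 ± 1.41 and 26.7 ± 0.681 RPKM with overlapping libraries, and Hk2, Pdk1 and Slc2a1 closed the order at 21.1 ± 0.891, 17.0 ± 0.527 and 12.6 ± 0.230 RPKM. In 5-FU+Saline, Ldha at 243 ± 2.07 and Pkm at 238 ± 3.49 RPKM overlapped at the top, and Slc2a3 at 22.5 ± 0.208 RPKM lay below both Pfkl at 30.1 ± 0.188 and Hk2 at 26.4 ± 0.276 RPKM. In Control, Pkm led at 143 ± 4.39 RPKM, Ldha at 118 ± 1.60 overlapped with Aldoa at 116 ± 2.77, and Hk2 at 16.5 ± 0.0451 RPKM lay below Pdk1 at 17.8 ± 0.478. Slc2a1 was the lowest member in every group. Reads that fit several places appear not to be counted, and several of these genes have processed pseudogenes, so levels per length may be too low by an amount not measured here.

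**Figure D1:**
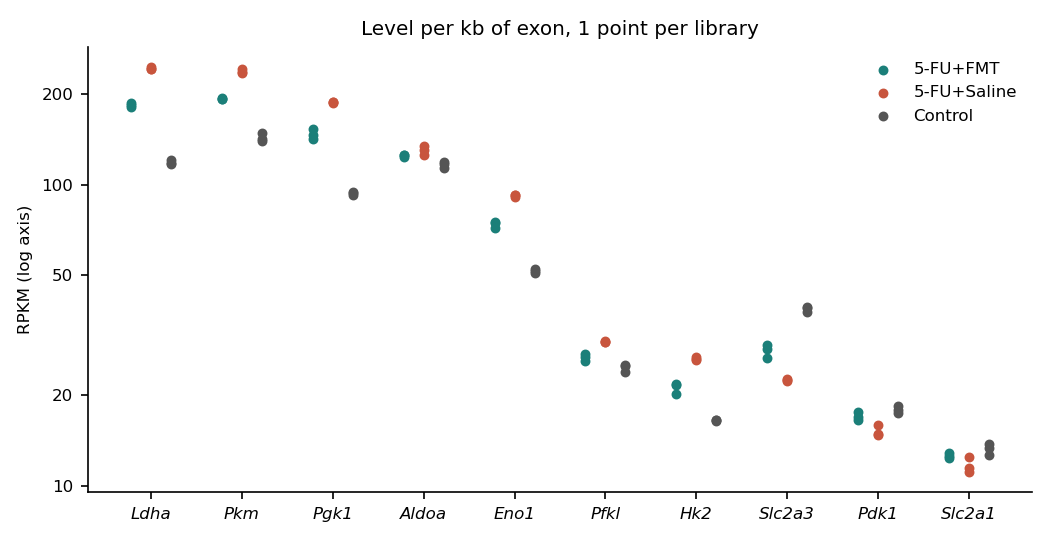
Level of each of the 10 genes per kb of exon (RPKM, log axis), with 1 point per library in 5-FU+FMT, 5-FU+Saline and Control. Ldha, Pkm, Pgk1, Eno1, Pfkl and Hk2 are highest in 5-FU+Saline, while the Slc2a3 libraries run the other way, with means of 28.1 RPKM in 5-FU+FMT, 22.5 in 5-FU+Saline and 38.6 in Control.

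Together the 10 genes took 0.337% ± 0.00241 of all counts in 5-FU+FMT, 0.398% ± 0.00109 in 5-FU+Saline and 0.261% ± 0.00199 in Control (SD, n = 3 each). The 3 comparisons share groups, so their results are not independent of each other, and each member's values are given side by side below. In 5-FU+Saline against Control, 7 members were higher and 3 lower, so that 10 of 10 were called at an adjusted p under 0.05 (edgeR, Benjamini-Hochberg over 16595 genes). Of all genes tested 65.5% were called, 32.8% higher and 32.7% lower. The median log2 difference of the members was 0.48, against -0.02 over all genes. The enzymes Hk2, Pfkl, Aldoa, Pgk1, Eno1, Pkm and Ldha rose, and Slc2a1, Slc2a3 and Pdk1 fell.

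In 5-FU+FMT against 5-FU+Saline, 6 members were lower (Hk2, Pfkl, Pgk1, Eno1, Pkm and Ldha) and 2 were higher (Slc2a3 and Pdk1). These 8 of 10 compare with 36.9% of all genes called, 17.7% higher and 19.2% lower, and the median log2 difference was -0.24 for the members and 0.01 over all genes. In 5-FU+FMT against Control, 7 members were higher and Slc2a3 was lower, 8 of 10 where 46.6% of all genes were called, 25.0% higher and 21.6% lower, with a median log2 difference of 0.24 for the members and -0.01 over all genes. Of all genes called there, 4151 were higher and 3584 lower, and 3315 were higher and 4559 lower with upper-quartile scaling. With that scaling Pfkl and Aldoa were no longer called in this comparison (edgeR, adjusted p = 0.212 and 0.363) and Pdk1 was called lower (adjusted p = 0.00333), as it was with a stricter filter (0.0423). The 5-FU+FMT mean lay between the means of the other groups for 10 of 10 members, as it did for 74.6% of all genes tested. The 5-FU+FMT and 5-FU+Saline libraries held both Xist and Y-linked RNA, and for both the 5-FU+FMT level also lay between those of the other groups. Whether 5-FU+FMT libraries hold RNA of cells like those of both other groups was not tested.

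**Figure D2:**
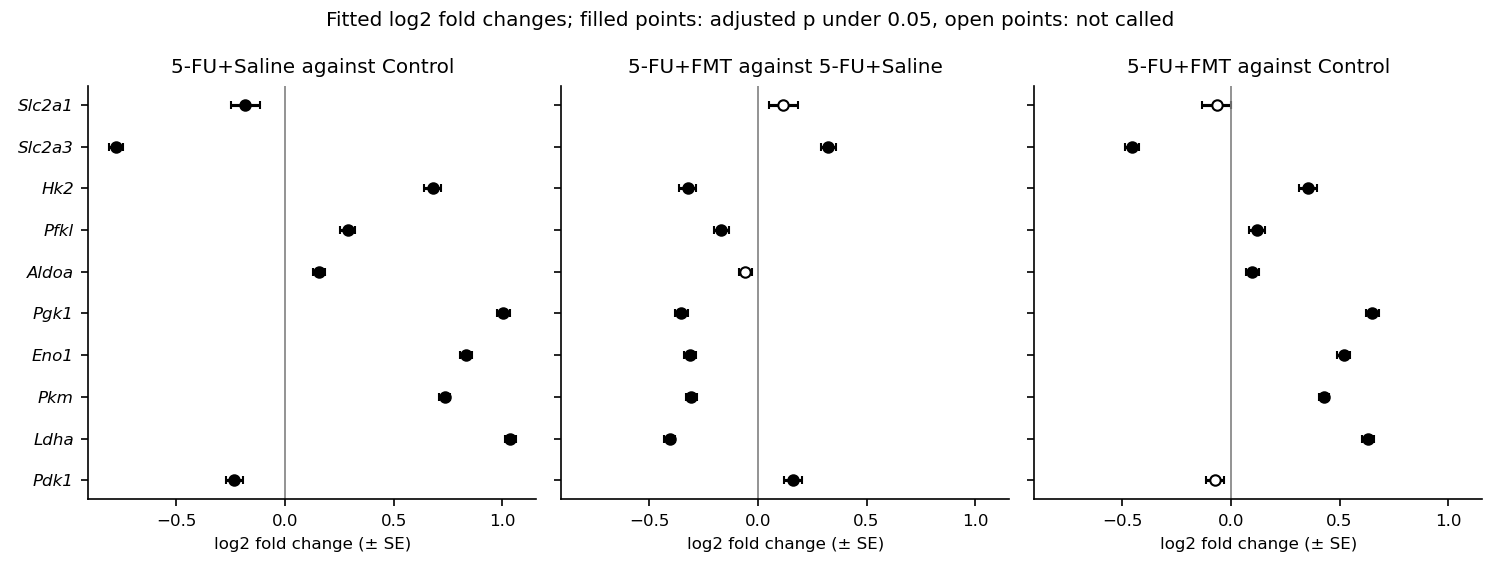
Fitted log2 fold change of each gene, with its standard error, in the 3 comparisons, with filled points for an adjusted p under 0.05. In 5-FU+Saline against Control the points run from -0.78 for Slc2a3 to 1.04 for Ldha, and in 5-FU+FMT against 5-FU+Saline from -0.41 for Ldha to 0.32 for Slc2a3.

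The transporters did not follow the enzymes. Slc2a3 (chr6:122727809-122801640, mm10, as all gene positions below), the high-affinity transporter also known from neurons, had 206, 193 and 213 CPM in 5-FU+FMT, 163, 164 and 161 CPM in 5-FU+Saline and 284, 281 and 273 CPM in Control. The 3 groups did not overlap, and Control was highest. Slc2a3 fell 1.71-fold in 5-FU+Saline against Control (log2 -0.78 ± 0.03 SE, edgeR adjusted p = 1.0e-33). With FMT it was 1.25-fold above 5-FU+Saline (adjusted p = 8.1e-13) and 1.37-fold below Control (adjusted p = 3.3e-20). Slc2a1 (chr4:119108711-119137983), the transporter of most resting tissues, had 44.1, 45.1 and 43.5 CPM in 5-FU+FMT, 38.9, 43.5 and 40.0 CPM in 5-FU+Saline and 46.9, 48.0 and 44.4 CPM in Control. Its 5-FU+Saline libraries lay just below the Control libraries, and the 5-FU+FMT libraries overlapped with both. It fell 1.13-fold in 5-FU+Saline against Control (log2 -0.18 ± 0.07 SE, edgeR adjusted p = 0.013). This call was lost with no filter on low counts (adjusted p = 0.106), without 5-FU+Saline replicate 1 or 3 (0.0818 and 0.0560) and without Control replicate 2 (0.0534). Slc2a1 was not called in 5-FU+FMT against 5-FU+Saline (log2 0.12, adjusted p = 0.17) or against Control (log2 -0.07, adjusted p = 0.44).

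Among the enzymes of the sugar-phosphate steps, Hk2 differed most. Hk2 (chr6:82725025-82774454), the inducible hexokinase that can sit on mitochondria, had 120.1, 129 and 129.7 CPM in 5-FU+FMT, 156, 158 and 159 CPM in 5-FU+Saline and 98.2, 98.8 and 98.5 CPM in Control. No groups overlapped. Hk2 was 1.60-fold higher in 5-FU+Saline than in Control (log2 0.68 ± 0.04 SE, edgeR adjusted p = 1.5e-25), 1.25-fold lower in 5-FU+FMT than in 5-FU+Saline (adjusted p = 9.7e-11) and 1.28-fold higher in 5-FU+FMT than in Control (adjusted p = 1.5e-11). Pfkl (chr10:77986947-78010083), the liver-type phosphofructokinase, averaged 179 ± 4.54 CPM in 5-FU+FMT, 201 ± 1.25 CPM in 5-FU+Saline and 165 ± 4.82 CPM in Control (SD, n = 3 each). It was 1.22-fold higher in 5-FU+Saline than in Control (edgeR adjusted p = 2.0e-11) and 1.12-fold lower in 5-FU+FMT than in 5-FU+Saline (adjusted p = 4.0e-05), with no overlap in either. The 1.09-fold difference between 5-FU+FMT and Control (adjusted p = 0.0035) was no longer called without Control replicate 3 (adjusted p = 0.0511). Aldoa (chr7:126795234-126800751), the main aldolase of blood cells and muscle, had 365, 359 and 366 CPM in 5-FU+FMT, 389.7, 365 and 379.8 CPM in 5-FU+Saline and 346, 330.3 and 341 CPM in Control. Its treated libraries overlapped with each other and lay above Control, by 1.12-fold in 5-FU+Saline (adjusted p = 2.1e-06) and 1.07-fold in 5-FU+FMT (adjusted p = 0.0034). Between 5-FU+FMT and 5-FU+Saline the difference in Aldoa was log2 -0.06 (adjusted p = 0.11), and it was called with relative-log-expression scaling (0.0349), in DESeq2 (0.0215) and without 5-FU+Saline replicate 2 (0.0377).

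In 5-FU+Saline against Control, Pgk1, Eno1 and Pkm of the later steps had larger differences than Hk2, Pfkl and Aldoa. Pgk1 (chrX:106187100-106203699), which makes the first ATP of the pathway, had 343, 319 and 328 CPM in 5-FU+FMT, 423, 422 and 418 CPM in 5-FU+Saline and 212, 208 and 210.0 CPM in Control. Pgk1 lies on the X chromosome, and Xist and Y-linked RNA moved with the groups as given above. Pgk1 was 2.01-fold higher in 5-FU+Saline than in Control (log2 1.00 ± 0.03 SE, edgeR adjusted p = 9.8e-44), 1.28-fold lower in 5-FU+FMT than in 5-FU+Saline (adjusted p = 1.6e-17) and 1.57-fold higher in 5-FU+FMT than in Control (adjusted p = 9.3e-31). Eno1 (chr4:150236721-150248879), the enolase that forms phosphoenolpyruvate, had 401, 405 and 387 CPM in 5-FU+FMT, 495, 489 and 497 CPM in 5-FU+Saline and 281, 278 and 274 CPM in Control. It was 1.78-fold higher in 5-FU+Saline than in Control (log2 0.83 ± 0.03 SE, edgeR adjusted p = 2.7e-40), 1.24-fold lower in 5-FU+FMT than in 5-FU+Saline (adjusted p = 2.9e-16) and 1.43-fold higher in 5-FU+FMT than in Control (adjusted p = 9.5e-27). Pkm (chr9:59656368-59679375), the pyruvate kinase of blood and muscle, had 967, 959 and 959 CPM in 5-FU+FMT, 1208, 1174 and 1185 CPM in 5-FU+Saline and 699, 740.3 and 707 CPM in Control. It was 1.66-fold higher in 5-FU+Saline than in Control (log2 0.73 ± 0.02 SE, edgeR adjusted p = 3.0e-41), 1.24-fold lower in 5-FU+FMT than in 5-FU+Saline (adjusted p = 1.0e-18) and 1.35-fold higher in 5-FU+FMT than in Control (adjusted p = 3.8e-26). For Pgk1, Eno1 and Pkm no library of one group overlapped with another group. Counts per gene do not separate the splice forms of Pkm, and 15.3% of its exon bases are shared with a transcript of unknown kind on the same strand, Gm49759.

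Ldha (chr7:46841475-46855627), which turns pyruvate into lactate, had the largest difference of the 10 genes in 5-FU+Saline against Control. It had 615, 609 and 597 CPM in 5-FU+FMT, 798, 812 and 803 CPM in 5-FU+Saline and 398, 388 and 390.4 CPM in Control. The groups stood clearly apart, with 5-FU+FMT in the middle. Ldha was 2.05-fold higher in 5-FU+Saline than in Control (log2 1.04 ± 0.03 SE, edgeR adjusted p = 3.4e-49), 1.32-fold lower in 5-FU+FMT than in 5-FU+Saline (log2 -0.41 ± 0.03 SE, adjusted p = 7.6e-24) and 1.55-fold higher in 5-FU+FMT than in Control (adjusted p = 2.6e-34). Pdk1 (chr2:71873224-71903858), the kinase that switches pyruvate dehydrogenase off, had 136, 132 and 128 CPM in 5-FU+FMT, 116, 115 and 124 CPM in 5-FU+Saline and 135, 138 and 143 CPM in Control. The 5-FU+Saline libraries were lowest, and those of 5-FU+FMT and Control overlapped. Pdk1 was 1.18-fold lower in 5-FU+Saline than in Control (log2 -0.23 ± 0.04 SE, edgeR adjusted p = 6.0e-07) and 1.12-fold higher in 5-FU+FMT than in 5-FU+Saline (adjusted p = 8.9e-04). Against Control, 5-FU+FMT differed by log2 -0.07 in Pdk1 (adjusted p = 0.14).

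**Figure D3:**
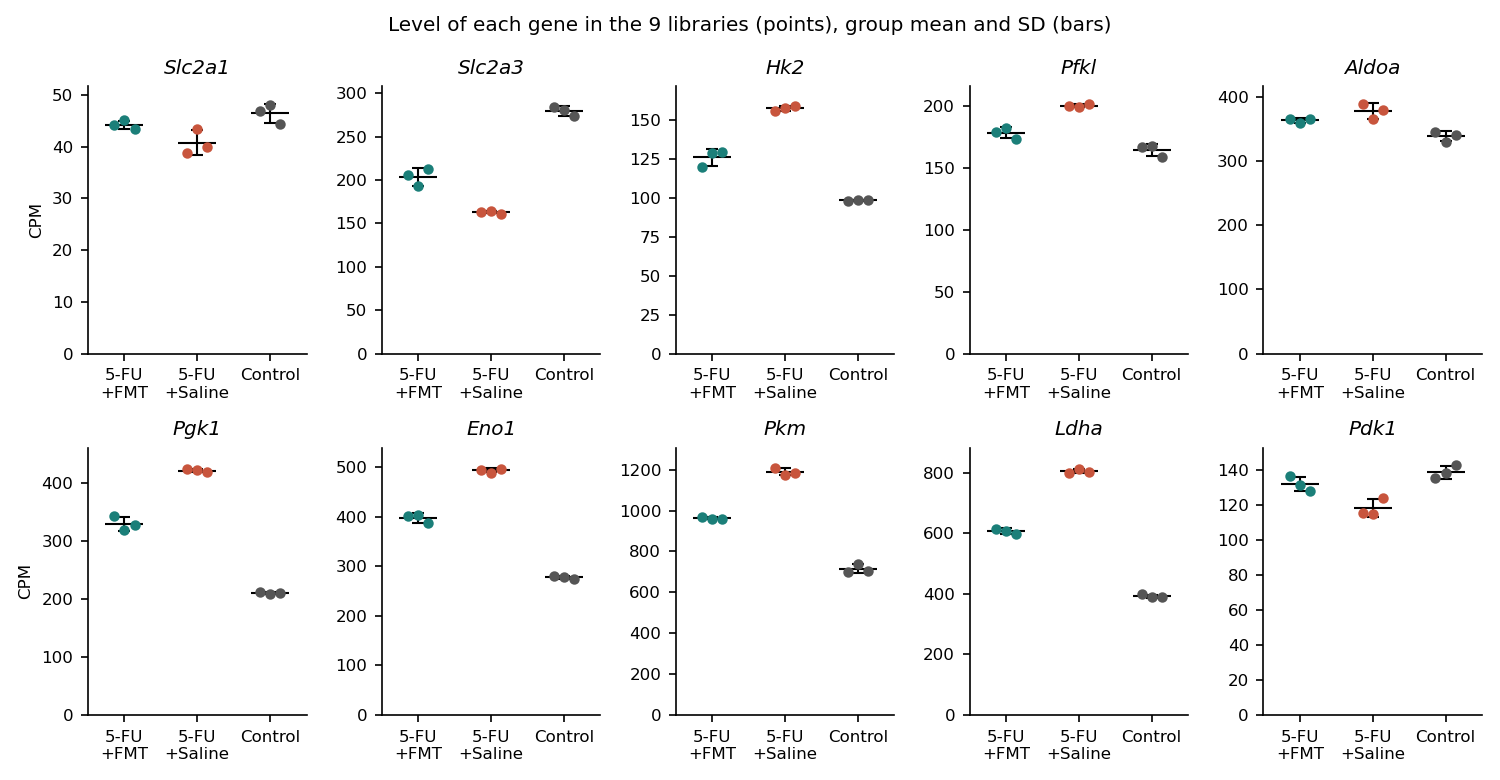
CPM of each of the 10 genes in the 9 libraries, with the group mean and SD as bars, for 5-FU+FMT, 5-FU+Saline and Control. For Hk2, Pgk1, Eno1, Pkm and Ldha the 5-FU+FMT libraries sit between higher 5-FU+Saline and lower Control libraries, and Slc2a3 has the opposite order.

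Of 20 other glycolytic enzymes, 15 were tested, of which 6 rose, 6 fell and 3 were not called in 5-FU+Saline against Control, 6 were higher and 7 lower in 5-FU+FMT against 5-FU+Saline, and 5 were higher and 7 lower in 5-FU+FMT against Control. The shares of all genes called in these comparisons, 65.5%, 36.9% and 46.6%, are the background for this count and for those of all lists below. Tpi1, Gapdh and Pgam1, enzymes of the middle steps, rose in 5-FU+Saline. Tpi1, which interconverts the triose phosphates, averaged 279 ± 5.44 CPM in 5-FU+FMT, 334 ± 8.28 CPM in 5-FU+Saline and 218 ± 6.24 CPM in Control (SD, n = 3 each). It was 1.53-fold higher in 5-FU+Saline than in Control (edgeR adjusted p = 1.3e-29) and 1.19-fold lower in 5-FU+FMT than in 5-FU+Saline (adjusted p = 4.4e-11). Pgam1, the mutase before enolase, averaged 150.3 ± 5.19, 178 ± 7.88 and 116 ± 6.90 CPM in the same groups. It was 1.54-fold higher in 5-FU+Saline than in Control (adjusted p = 2.4e-23) and 1.18-fold lower in 5-FU+FMT than in 5-FU+Saline (adjusted p = 4.7e-07). Gapdh, between these steps, was 1.37-fold higher in 5-FU+Saline than in Control (adjusted p = 2.5e-16), and its level is uncertain because of its many pseudogenes.

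The enzymes that fell in 5-FU+Saline were mostly forms of a step other than the member of the set. Such a form was not always the lesser one. In counts per kb, Hk3 made up 44.1% of hexokinase in Control and Hk2 19.2%. Hk1 and Pfkp, also forms other than the member, had a higher share of their family in 5-FU+Saline. In counts per kb, Hk1 was 48.4% of hexokinase in 5-FU+Saline and 36.4% in Control. Pfkp was 11.4% and 9.28% of phosphofructokinase in these groups. Hk3, a hexokinase typical of myeloid cells, averaged 94.2 ± 4.36 CPM in 5-FU+FMT, 54.7 ± 2.52 CPM in 5-FU+Saline and 139.7 ± 5.05 CPM in Control. It was 2.55-fold lower in 5-FU+Saline than in Control (edgeR adjusted p = 4.4e-39) and 1.72-fold higher in 5-FU+FMT than in 5-FU+Saline (adjusted p = 3.0e-23). Ldhb, the form of lactate dehydrogenase that favours pyruvate, was 1.86-fold lower in 5-FU+Saline than in Control (adjusted p = 5.1e-19). Aldoc, Eno2 and Eno3, known from brain and muscle, were 3.04-fold, 2.38-fold and 1.60-fold lower there (adjusted p = 8.5e-18, 6.5e-09 and 3.9e-06). Pklr, the pyruvate kinase of liver and red cells, had 17.0 ± 1.83 CPM in 5-FU+FMT, 0.188 ± 0.223 CPM in 5-FU+Saline, from 9 counts in all, and 39.6 ± 1.66 CPM in Control. The summed neutrophil and erythroid marker RNA ran in the same order over the groups as Hk3 and Pklr, although 3 of the 8 neutrophil markers were higher in 5-FU+Saline than in Control. The part of such cells in these differences was not tested.

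**Figure D4:**
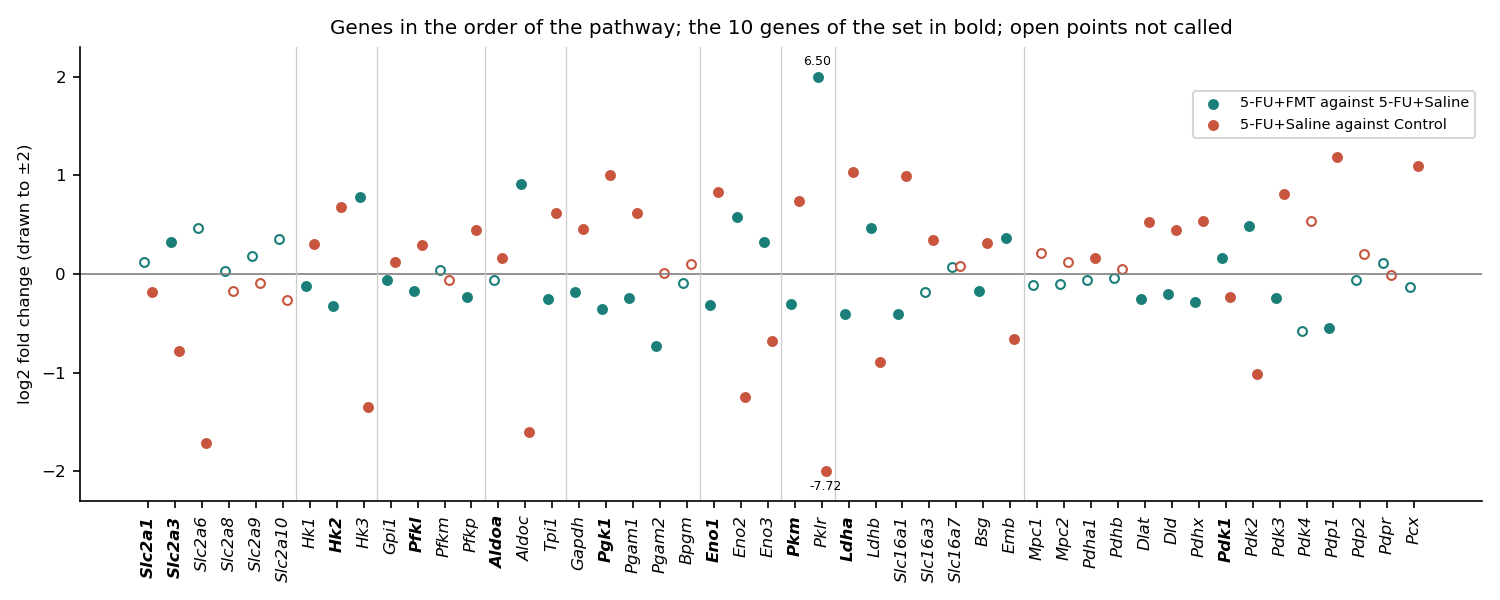
Fitted log2 fold changes of the 10 genes (bold) and of other genes of glycolysis and pyruvate use, in the order of the pathway, for 5-FU+FMT against 5-FU+Saline (left point) and 5-FU+Saline against Control (right point), with open points where the adjusted p was 0.05 or above. Pklr is drawn at the edge with its fitted value, 6.50 and -7.72, which rests on 9 counts in 5-FU+Saline. Hk3, Aldoc, Eno2, Eno3 and Ldhb lie on the other side of 0 from the member of their step.

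Shares within a family do not depend on library scaling, so each isozyme's share of the counts per kb of its family was computed in each library. Hk2 made up 25.6% ± 0.671 of hexokinase in 5-FU+FMT, 33.0% ± 0.614 in 5-FU+Saline and 19.2% ± 0.185 in Control (SD, n = 3 each). Hk3 made up 31.0% ± 1.07, 18.6% ± 0.692 and 44.1% ± 1.23 in the same groups, so that the leading hexokinase by this measure was Hk3 in Control and Hk1 in both treated groups, with 43.1% ± 1.68 in 5-FU+FMT and 48.4% ± 0.440 in 5-FU+Saline. Ldha made up 88.4% ± 0.304 of lactate dehydrogenase in 5-FU+FMT, 93.3% ± 0.163 in 5-FU+Saline and 78.6% ± 1.08 in Control. Pkm made up 97.3% ± 0.289, 99.98% ± 0.0295 and 92.1% ± 0.495 of pyruvate kinase in the same order of groups, and Eno1 90.7% ± 1.68, 94.0% ± 0.282 and 83.7% ± 0.716 of enolase. The shares of Hk2, Ldha, Pkm and Eno1 were thus highest in 5-FU+Saline and lowest in Control.

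Among the transporters, Slc2a3 made up 56.3% ± 1.51 of the family in 5-FU+FMT, 53.0% ± 0.748 in 5-FU+Saline and 62.4% ± 1.05 in Control, and Slc2a1 25.3% ± 1.08, 27.4% ± 1.095 and 21.4% ± 0.230. Pfkl, at 43.2% ± 0.363, 45.8% ± 0.390 and 41.5% ± 1.00, shared phosphofructokinase mainly with Pfkm, at 46.5% ± 0.657, 42.8% ± 0.656 and 49.2% ± 1.496. Pfkp made up 10.2% ± 0.316, 11.4% ± 0.288 and 9.28% ± 0.669 in the same groups. Pdk1 made up 33.3% ± 0.350 of its kinase family in 5-FU+FMT, 28.8% ± 1.38 in 5-FU+Saline and 38.8% ± 0.357 in Control, while Pdk3 made up 52.9% ± 0.968, 60.8% ± 2.02 and 39.6% ± 0.548. With 3 libraries against 3, the exact two-sided permutation test cannot go below p = 0.1, which was 0.104 after adjustment over the 27 shares compared. The libraries of the groups did not overlap for 9 of 9 member shares in 5-FU+Saline against Control, 8 of 9 in 5-FU+FMT against 5-FU+Saline (Slc2a1 overlapped) and 9 of 9 in 5-FU+FMT against Control, leaving out Pgk1, which stands alone in its family. Over all genes tested, CPM did not overlap for 67.8%, 46.3% and 52.7% in these comparisons. CPM is another measure than a share, in which the isozymes of a family depend on each other. No background was computed for shares, so these percentages cannot be set against the counts of shares.

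**Figure D5:**
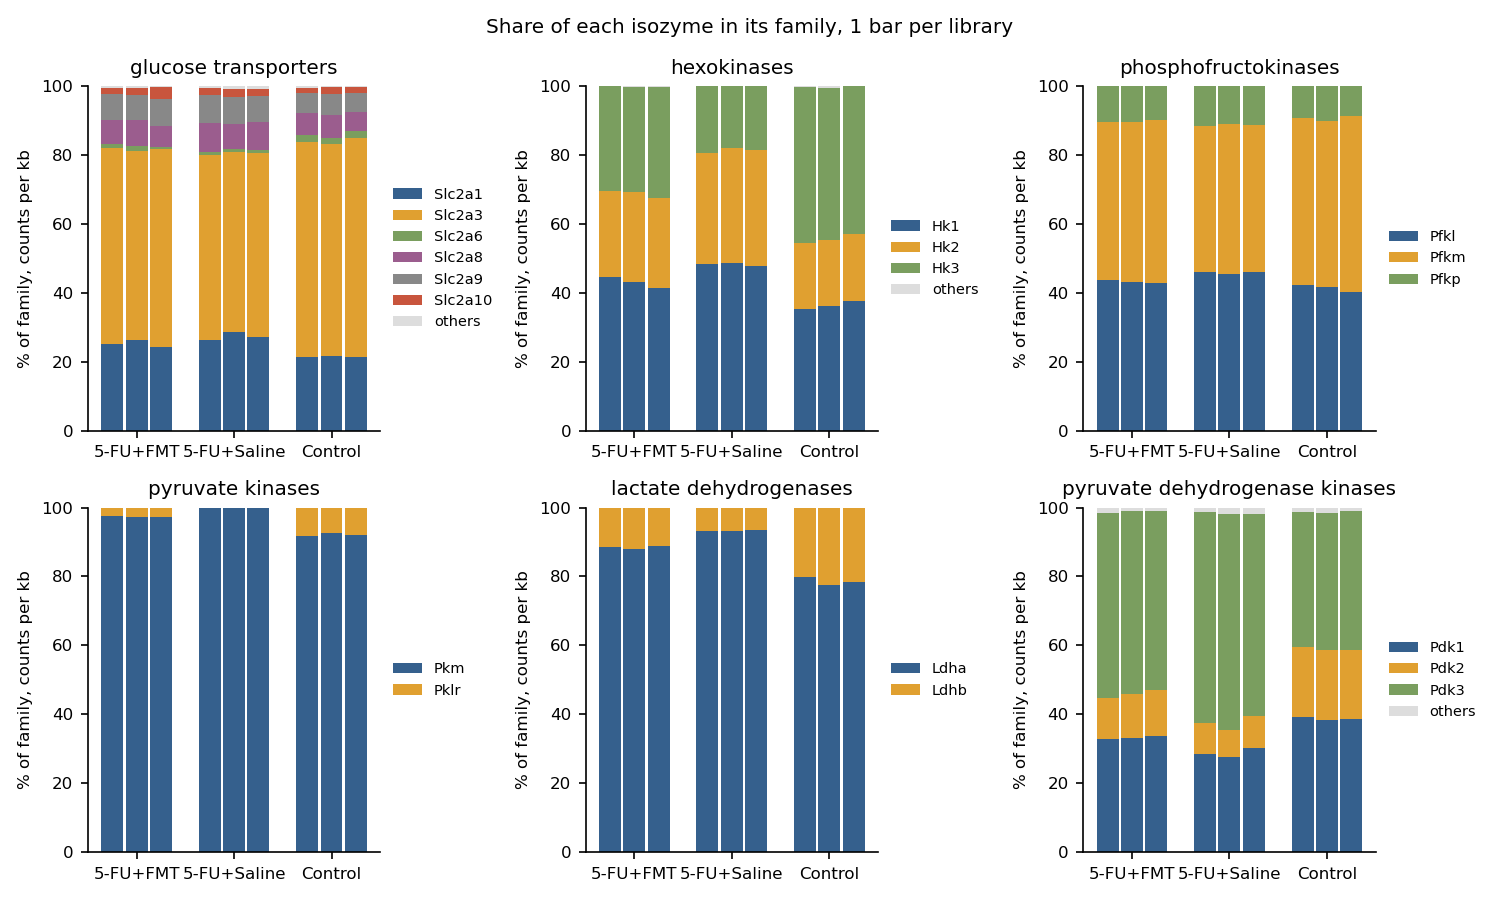
Share of each isozyme in the counts per kb of its family, with 1 stacked bar per library in 5-FU+FMT, 5-FU+Saline and Control. The Hk2 share is 25.6%, 33.0% and 19.2% on average in these groups, the Ldha share 88.4%, 93.3% and 78.6%, and the Pdk1 share 33.3%, 28.8% and 38.8%.

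Other glucose transporters were low, and 4 of 9 were tested. Slc2a6 fell 3.28-fold in 5-FU+Saline against Control (1.24 ± 0.139 against 4.07 ± 0.270 CPM, SD, n = 3, edgeR adjusted p = 8.6e-07) and was 2.38-fold lower in 5-FU+FMT than in Control (adjusted p = 2.6e-04). It was not tested with a stricter filter. In 5-FU+FMT against 5-FU+Saline, edgeR called 0 of the 4, with 0 at an unadjusted p under 0.05, and DESeq2 called 0.

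The enzymes that make and break fructose 2,6-bisphosphate, the main activator of phosphofructokinase, moved in both directions. Pfkfb3, the form linked to fast glycolysis, averaged 67.4 ± 2.81 CPM in 5-FU+FMT, 76.7 ± 2.37 CPM in 5-FU+Saline and 66.7 ± 2.80 CPM in Control. It was 1.15-fold higher in 5-FU+Saline than in Control (edgeR adjusted p = 5.8e-04) and 1.14-fold lower in 5-FU+FMT than in 5-FU+Saline (adjusted p = 0.0028). Pfkfb4 averaged 18.04 ± 0.958, 11.5 ± 1.25 and 26.5 ± 1.42 CPM, which was 2.298-fold lower in 5-FU+Saline than in Control (adjusted p = 1.3e-17) and 1.57-fold higher in 5-FU+FMT than in 5-FU+Saline (adjusted p = 4.7e-07). Pfkfb2 ran the same way as Pfkfb4, 1.29-fold lower in 5-FU+Saline than in Control (adjusted p = 8.6e-04) and 1.30-fold higher in 5-FU+FMT than in 5-FU+Saline (adjusted p = 0.0010), and both calls were lost without 5-FU+Saline replicate 3 (0.0561 and 0.0621). Pfkfb1 was 1.40-fold higher in 5-FU+Saline than in Control (adjusted p = 0.035), with overlapping libraries, and lost its call in 6 settings: without Control replicate 3 (0.356), without 5-FU+Saline replicate 1 or 3 (0.0586 and 0.157), with upper-quartile scaling (0.0782), with a stricter filter (0.0518) and in DESeq2 (0.0566). Of the 5 genes, 4 were called in 5-FU+Saline against Control, 3 in 5-FU+FMT against 5-FU+Saline and 1, Pfkfb4, in 5-FU+FMT against Control. Called in 5-FU+Saline against Control were 2 without 5-FU+Saline replicate 3, and in 5-FU+FMT against Control 3 without Control replicate 1 and 2 without 5-FU+FMT replicate 3.

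Around the branch point of pyruvate, 7 of 14 genes rose and 1 fell in 5-FU+Saline against Control. Taken in either direction, this was a smaller share than the 65.5% of all genes called, of which 32.8% of all genes were higher and 32.7% lower. The median log2 difference was 0.33 for these 14 genes and -0.02 over all genes. In 5-FU+FMT against 5-FU+Saline 1 was higher and 5 lower, and in 5-FU+FMT against Control 7 were higher and 1 lower. The other kinases of pyruvate dehydrogenase split. Pdk3 averaged 69.0 ± 4.10 CPM in 5-FU+FMT, 82.0 ± 3.51 CPM in 5-FU+Saline and 46.6 ± 2.14 CPM in Control, and was 1.75-fold higher in 5-FU+Saline than in Control (edgeR adjusted p = 1.3e-21). Pdk2 averaged 20.3 ± 0.552, 14.5 ± 1.15 and 29.3 ± 0.658 CPM, and was 2.02-fold lower in 5-FU+Saline than in Control (adjusted p = 4.2e-16), as was Pdk1. Pdp1, the phosphatase that switches the enzyme back on, was 2.28-fold higher in 5-FU+Saline than in Control (adjusted p = 1.3e-15) and 1.46-fold lower in 5-FU+FMT than in 5-FU+Saline (adjusted p = 1.0e-05). Dlat, a core subunit, was 1.195-fold lower in 5-FU+FMT than in 5-FU+Saline (adjusted p = 5.5e-05), and Pcx, which makes oxaloacetate from pyruvate, was 1.94-fold higher in 5-FU+FMT than in Control (adjusted p = 2.9e-07).

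Of 5 genes of lactate transport, 3 rose and 1 fell in 5-FU+Saline against Control. Slc16a1, which carries lactate across the cell membrane, averaged 94.8 ± 2.57 CPM in 5-FU+FMT, 126 ± 2.65 CPM in 5-FU+Saline and 63.1 ± 1.72 CPM in Control. It was 1.99-fold higher in 5-FU+Saline than in Control (edgeR adjusted p = 1.4e-31), 1.32-fold lower in 5-FU+FMT than in 5-FU+Saline (adjusted p = 1.9e-12) and 1.503-fold higher in 5-FU+FMT than in Control (adjusted p = 8.8e-18). Its membrane partners moved apart. Bsg was 1.24-fold higher in 5-FU+Saline than in Control (adjusted p = 1.3e-12), while Emb was 1.58-fold lower (adjusted p = 1.6e-26) and 1.29-fold higher in 5-FU+FMT than in 5-FU+Saline (adjusted p = 3.7e-13). Bsg was also 1.097-fold higher in 5-FU+FMT than in Control (adjusted p = 0.0010), which was not called with upper-quartile scaling (0.108).

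Regulators of glycolysis did not move as a block. Of 10 HIF regulators, 5 rose and 3 fell in 5-FU+Saline against Control, and 2 were higher and 4 lower in 5-FU+FMT against 5-FU+Saline. With upper-quartile scaling 3 rose in 5-FU+Saline. Hif1a, the oxygen-controlled subunit that drives glycolysis genes, averaged 58.7 ± 1.90 CPM in 5-FU+FMT, 71.5 ± 4.05 CPM in 5-FU+Saline and 57.5 ± 5.39 CPM in Control, and was 1.22-fold lower in 5-FU+FMT than in 5-FU+Saline (edgeR adjusted p = 3.9e-05). Epas1, its paralog, averaged 6.03 ± 1.08, 12.4 ± 1.45 and 1.67 ± 0.427 CPM and was 7.47-fold higher in 5-FU+Saline than in Control (adjusted p = 1.4e-22). Hif3a, which can hold the others back, averaged 12.4 ± 1.42, 4.22 ± 0.438 and 24.7 ± 1.64 CPM and was 5.87-fold lower in 5-FU+Saline than in Control (adjusted p = 1.4e-29). Egln1, which marks HIF subunits for breakdown, was 1.28-fold higher in 5-FU+Saline than in Control (adjusted p = 1.5e-06), and Meis1, a stem cell factor, was 1.42-fold lower (adjusted p = 2.2e-23). Endothelial cells are known for Epas1, and the summed level of 5 endothelial markers was 59.8 to 64.1 CPM in 5-FU+FMT, 90.1 to 97.2 CPM in 5-FU+Saline and 38.2 to 41.6 CPM in Control. The part of such cells in the Epas1 values was not tested.

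Most of the HIF targets outside glycolysis that were called in 5-FU+Saline against Control fell. Of 13, 2 rose and 8 fell in 5-FU+Saline against Control, with a median log2 difference of -0.29, and 5 were higher and 1 lower in 5-FU+FMT against 5-FU+Saline. The 5 became 3 in DESeq2 and without 5-FU+FMT replicate 3 or 5-FU+Saline replicate 1 or 2. Ndrg1, a stress-response gene, averaged 57.8 ± 4.25 CPM in 5-FU+FMT, 31.4 ± 0.679 CPM in 5-FU+Saline and 94.3 ± 3.15 CPM in Control, 2.998-fold lower in 5-FU+Saline than in Control (edgeR adjusted p = 2.3e-37). Vegfa, the vessel growth factor, was 1.70-fold lower in 5-FU+Saline than in Control (adjusted p = 6.4e-24) and 1.63-fold lower in 5-FU+FMT than in Control (adjusted p = 2.7e-21). P4ha1, a collagen prolyl hydroxylase, was 1.24-fold higher in 5-FU+FMT than in 5-FU+Saline (adjusted p = 5.7e-04), while Higd1a, a mitochondrial protein, was 1.43-fold higher in 5-FU+Saline than in Control (adjusted p = 4.3e-08) and 1.27-fold lower in 5-FU+FMT than in 5-FU+Saline (adjusted p = 2.6e-04). Adm, called higher in 5-FU+Saline and in 5-FU+FMT than in Control, rested on 22 counts in 5-FU+FMT, 34 in 5-FU+Saline and 2 in Control, and its call in 5-FU+FMT against Control was lost without Control replicate 3 (edgeR adjusted p = 0.0559). Adm was not tested with a stricter filter, with only the groups compared in the fit or without 5-FU+Saline replicate 2.

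Among glucose-responsive and growth regulators, Txnip, which restrains glucose uptake, averaged 208 ± 6.58 CPM in 5-FU+FMT, 145 ± 5.02 CPM in 5-FU+Saline and 282 ± 10.5 CPM in Control. It was 1.95-fold lower in 5-FU+Saline than in Control (edgeR adjusted p = 7.4e-39), 1.44-fold higher in 5-FU+FMT than in 5-FU+Saline (adjusted p = 6.9e-22) and 1.36-fold lower in 5-FU+FMT than in Control (adjusted p = 3.2e-19). Mlxip, the glucose-sensing factor that switches Txnip on, was 1.48-fold lower in 5-FU+Saline than in Control (adjusted p = 2.3e-26), and Arrdc4, another of its targets, was 1.22-fold higher (adjusted p = 0.0023). Mycn, a driver of growth and glycolysis genes, averaged 86.9 ± 2.19, 107 ± 4.15 and 49.8 ± 1.82 CPM, 2.15-fold higher in 5-FU+Saline than in Control (adjusted p = 8.4e-32) and 1.23-fold lower in 5-FU+FMT than in 5-FU+Saline (adjusted p = 2.2e-07). In all, 3 of 8 tested regulators rose and 4 fell in 5-FU+Saline against Control.

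Markers of dividing cells had the same order over the groups as most of the enzymes. All 8 proliferation genes were called higher in 5-FU+Saline than in Control, lower in 5-FU+FMT than in 5-FU+Saline and higher in 5-FU+FMT than in Control, with median log2 differences of 1.18, -0.36 and 0.87. Mki67 averaged 795 ± 4.14 CPM in 5-FU+FMT, 991 ± 10.01 CPM in 5-FU+Saline and 443 ± 15.01 CPM in Control (SD, n = 3 each), 2.24-fold higher in 5-FU+Saline than in Control (edgeR adjusted p = 6.0e-53). The part of division in the enzyme values was not tested.

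For each member but Aldoa, the protein-coding genes with the nearest profile were those with the smallest root mean square distance in log2 CPM over the 9 libraries, each gene centred on its own mean, among 9557 genes of at least 10 CPM. The closest pair was Pkm with Nudc, at a distance of 0.0100 log2 units, followed by Eif5a at 0.0233 and Tomm70a at 0.0258. Eno1 lay nearest to Tubb5, Atp5b and Anp32b, at 0.0142, 0.0149 and 0.0187. The other enzymes given had neighbours of several kinds. Pgk1 lay nearest to Hmgb2, Eif2s3x and Lig1 (0.0242 to 0.0314), Ldha to Myo1c, Atp1b3 and Smarca4 (0.0253 to 0.0268), Hk2 to Igfbp4, Prpf19 and Slc25a39 (0.0252 to 0.0357) and Pfkl to Prpf8, Nop58 and Sept9 (0.0169 to 0.0261). For the genes that fell in 5-FU+Saline, Slc2a3 lay nearest to Ifi44, Ppan and Pdzk1ip1 (0.0309 to 0.0351), Slc2a1 to Pikfyve, Rnf114 and Fbxw2 (0.0278 to 0.0296) and Pdk1 to Sra1, Eif2ak4 and Marf1 (0.0294 to 0.0349). These distances describe 9 libraries that differ mainly by group.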

How the data were processed

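Paired-end reads of 9 libraries (3 groups of 3) were trimmed with Trim Galore 0.6.5, aligned with HISAT2 2.2.1 and counted with featureCounts 2.0.1 on mm10, per the submitters' processing notes. Per the file headers, the authors counted read pairs over exons per gene ID of GENCODE M25, with no strand option and no option for multiply mapped reads, so overlapping genes on opposite strands cannot be separated. The deposited values are raw counts per gene, and the exon length per gene deposited beside them served for RPKM. Genes kept by filterByExpr were fitted together with TMM factors by edgeR 4.0.16 (glmQLFit and glmQLFTest, R 4.3.3), with 1 coefficient per group, and called where p, adjusted by Benjamini-Hochberg over 16595 genes, was under 0.05. The fit was tested on simulated data. CPM use the TMM library sizes. Shares were compared with an exact permutation test (scipy 1.17.1), with DESeq2 1.42.0 and other settings as alternatives. Counting error and the spread of 3 libraries limit precision, and no library was left out.

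The members and the lists of other genes were chosen with earlier results of these data known. Named from each list were, per comparison, up to 2 genes called higher and 2 called lower with the smallest p, and per member the 3 nearest profiles (those of Aldoa are not reported here), and further genes of the same steps were chosen after their values were seen. Chromosome X and Y genes were read beside the results because no sex is given. Symbols for gene IDs came from the GENCODE annotation, which named 55141 of 56262 IDs, and promoter sequences from RefSeq (GRCm38.p6).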

Additional observations from a re-analysis of the deposited data

How the results depend on the processing

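Over 17 alternative settings, the 10 members gave 510 values, of which 498 stayed on their side of the threshold, 7 lost and 5 gained a call, and 0 changed direction. Leaving out 1 library at a time gave 10298 to 11054 genes called in 5-FU+Saline against Control, 5301 to 6199 in 5-FU+FMT against 5-FU+Saline and 6912 to 7724 in 5-FU+FMT against Control. The members called were then 9 to 10, 8 to 9 and 7 to 8, and member shares without overlap 9 to 9, 8 to 9 and 9 to 9. Deviations from the group mean correlated at -0.0093 to 0.0503 between libraries with the same replicate number, and at -0.0532 to 0.0321 between libraries with other numbers. A fit with the replicate number as a block called 10847, 6193 and 7717 genes. Upper-quartile scaling gave 7874 genes called in 5-FU+FMT against Control. The 5-FU+Saline libraries, of 15128336 to 19270976 counts each, held 9 counts of Pklr in all.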

Other observations

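The pentose phosphate pathway draws on glucose 6-phosphate for NADPH and ribose. Of 8 of its genes, 4 rose and 1 fell in 5-FU+Saline against Control, 3 were lower in 5-FU+FMT against 5-FU+Saline and 3 were higher in 5-FU+FMT against Control, where 5 were called without Control replicate 2. Of all genes 65.5%, 36.9% and 46.6% were called in these comparisons. Tkt, the transketolase that links the pathway back to glycolysis, averaged 594 ± 12.7 CPM in 5-FU+FMT, 660.2 ± 13.7 CPM in 5-FU+Saline and 512 ± 9.73 CPM in Control (SD, n = 3 each). It was 1.29-fold higher in 5-FU+Saline than in Control (edgeR adjusted p = 2.4e-21) and 1.11-fold lower in 5-FU+FMT than in 5-FU+Saline (adjusted p = 9.9e-07). Pgls, the lactonase of the oxidative branch, was 1.46-fold higher in 5-FU+Saline than in Control (adjusted p = 7.3e-19), while G6pdx, which opens that branch, differed by log2 0.04 (adjusted p = 0.57). Rpia was 1.12-fold lower there (adjusted p = 0.0077), and not called without Control replicate 3 (0.289), without 5-FU+Saline replicate 2 (0.0725) or with no filter (0.0710).

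Of 11 genes of glycogen and gluconeogenesis tested, 7 rose and 2 fell in 5-FU+Saline against Control. Pgm1, which links glycogen to glycolysis, was 1.34-fold higher (edgeR adjusted p = 7.0e-09) and Pck2, the mitochondrial enzyme that makes phosphoenolpyruvate, 1.27-fold higher (adjusted p = 6.7e-13). Gbe1, the glycogen branching enzyme, was 1.32-fold lower (adjusted p = 9.8e-06), and Pygl, a glycogen phosphorylase, was 1.26-fold lower (adjusted p = 3.2e-07) and 1.17-fold higher in 5-FU+FMT than in 5-FU+Saline (adjusted p = 5.3e-04). Pgm2 and Pygb were 1.16-fold and 1.099-fold lower in 5-FU+FMT than in 5-FU+Saline (adjusted p = 0.012 and 0.018), and neither was called without 5-FU+FMT replicate 3 (0.104 and 0.0621).

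The 5-FU+FMT level can be placed on a scale with Control at 0% and 5-FU+Saline at 100%, which was done after the values were seen. Ldha lay at 52.2% (49.8% to 54.2% over 3 libraries), Pkm at 52.0% (51.4% to 53.0%), Eno1 at 55.4% (50.4% to 58.7%), Pgk1 at 56.7% (51.4% to 62.8%), Hk2 at 46.8% (36.5% to 52.8%) and Slc2a3 at 64.9% (57.3% to 74.5%), the 6 members that differed at least 1.5-fold between 5-FU+Saline and Control. Xist lay at 56.8% (54.9% to 57.8%) and the 4 Y-linked genes summed at 51.1% (49.7% to 53.7%). The summed markers of proliferation lay at 60.1%, of erythroid cells at 57.9%, of the neutrophil lineage at 64.4%, of stem cells at 66.1%, of endothelium at 40.2% and of the B lineage at 45.9%, but those of stroma at 7.57% and of macrophages at -7.72%. The stroma and macrophage sums do not stand for each marker. In 5-FU+FMT against Control, 6 of 7 stroma markers were called higher and 1 lower, with a median log2 difference of 3.39. Of 5 macrophage markers 3 were higher and 1 lower, with a median of 0.85, where 46.6% of all genes were called. The 2933 genes called with at least a 2-fold difference between 5-FU+Saline and Control had a median of 58.9% and quartiles of 46.1% and 69.2%. All these positions use the same Control and 5-FU+Saline libraries as their ends. What sets them was not tested.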
